A study of Homo sapiens with 6 samples.

Results

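The nuclear lamina and the inner nuclear membrane were followed through 10 transcripts in HCT-8 cells treated with a low dose of 5-fluorouracil (5-FU). They are the lamins LMNB1, LMNB2 and LMNA, the membrane proteins LBR, TMPO and EMD, the DNA-bridging protein BANF1, and SUN1, SUN2 and SYNE2 of the bridge to the cytoskeleton. All 10 were found by symbol among the 58735 genes of the deposited count table, and all 10 had enough counts to enter the fit of 19771 genes. The set was selected on measured values: LMNB1 was chosen by its log2 fold change, among the strongest decreases of the same comparison, and the other envelope genes were set beside it. The differences of these 10 genes between 5-FU and control libraries are therefore given as a description, without a test.

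HCT-8 is a human colorectal adenocarcinoma line, grown here as a monolayer in serum-containing medium. The 5-FU group had 3 libraries of cells given the drug at its 10% inhibitory concentration, and the control group had 3 libraries of untreated cells of the same line. Neither the molar dose nor the duration is stated in the sources used here. Libraries held 18459939 to 20613228 counts in the 5-FU group and 21659252 to 23495607 in the control group. Whether the replicates came from separate cultures is not labelled, and the p-values below therefore reflect only how these samples scatter, which may be technical. Mitochondrially encoded transcripts took 25.5% to 28.5% of counts in the 5-FU group and 4.66% to 4.88% in the control group. The 10 colorectal epithelial markers were all counted in enough reads to be tested, and their summed level was 3722 to 4603 CPM (counts scaled to library size) after 5-FU and 4927 to 6738 CPM in control. Of 14 markers of other cell types 6 had enough counts to be tested, DCN and LUM were at 0 in every library, and the summed level of the list was 44.1 to 76.6 CPM after 5-FU and 18.4 to 23.3 CPM in control, most of it COL1A1. In the edgeR test described below, 4 of the 10 epithelial markers were called lower and 1 higher. Of the 6 tested markers of other cell types 4 were called higher, and the other 8 of the 14 had too few counts. GFAP, at 1.18 CPM after 5-FU and 0.294 CPM in control, entered the test only through the 5-FU libraries and could only be called higher. The share of this list is therefore not comparable with that of all genes. Over all tested genes 33.9% were called lower and 36.3% higher. The part of these markers in the differences below was not tested.

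Lamins are intermediate filament proteins that line the inner face of the nuclear envelope. B-type lamins, encoded by LMNB1 and LMNB2, keep a farnesyl anchor and stay at the membrane, whereas LMNA gives lamin A and lamin C by alternative splicing. Membrane proteins such as LBR, LAP2 (from TMPO) and emerin (from EMD) tie the lamina to chromatin, and the LINC complex of SUN and nesprin proteins passes force from the cytoskeleton. Loss of LMNB1 transcript and protein is widely used as a marker of cellular senescence, a lasting exit from the cell cycle.

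Of the lamins LMNB1 differed most. Its counts were 97, 174 and 171 in the 5-FU libraries against 4446, 2874 and 5141 in the control libraries. Scaled to library size, LMNB1 stood at 4.94, 9.08 and 8.10 CPM after 5-FU, against 199, 129.9 and 254 CPM in control. The highest 5-FU library was thus far below the lowest control library. The mean after 5-FU was 7.37 ± 2.16 CPM, which is 3.79% of the control mean of 194 ± 62.1 CPM (SD, n = 3 each). The log2 fold change was -4.72 (SE 0.28), and only 5 of the 19771 genes had a lower one, against a median of 0.09 over all of them. In these bulk samples fewer cells with a transcript and less transcript per cell cannot be told apart.

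LMNB2, the second B-type lamin, was lower by less. It stood at 73.2, 80.2 and 73.8 CPM after 5-FU against 347, 299 and 434 CPM in control, or 21.1% of the control mean (log2 fold change -2.25, SE 0.15). LMNA was at 353, 389 and 336 CPM after 5-FU against 970.1, 813 and 946 CPM in control, or 39.5% of the control mean (-1.34, SE 0.14). For both genes the groups lay apart in the same direction as for LMNB1.

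**Figure D1:**
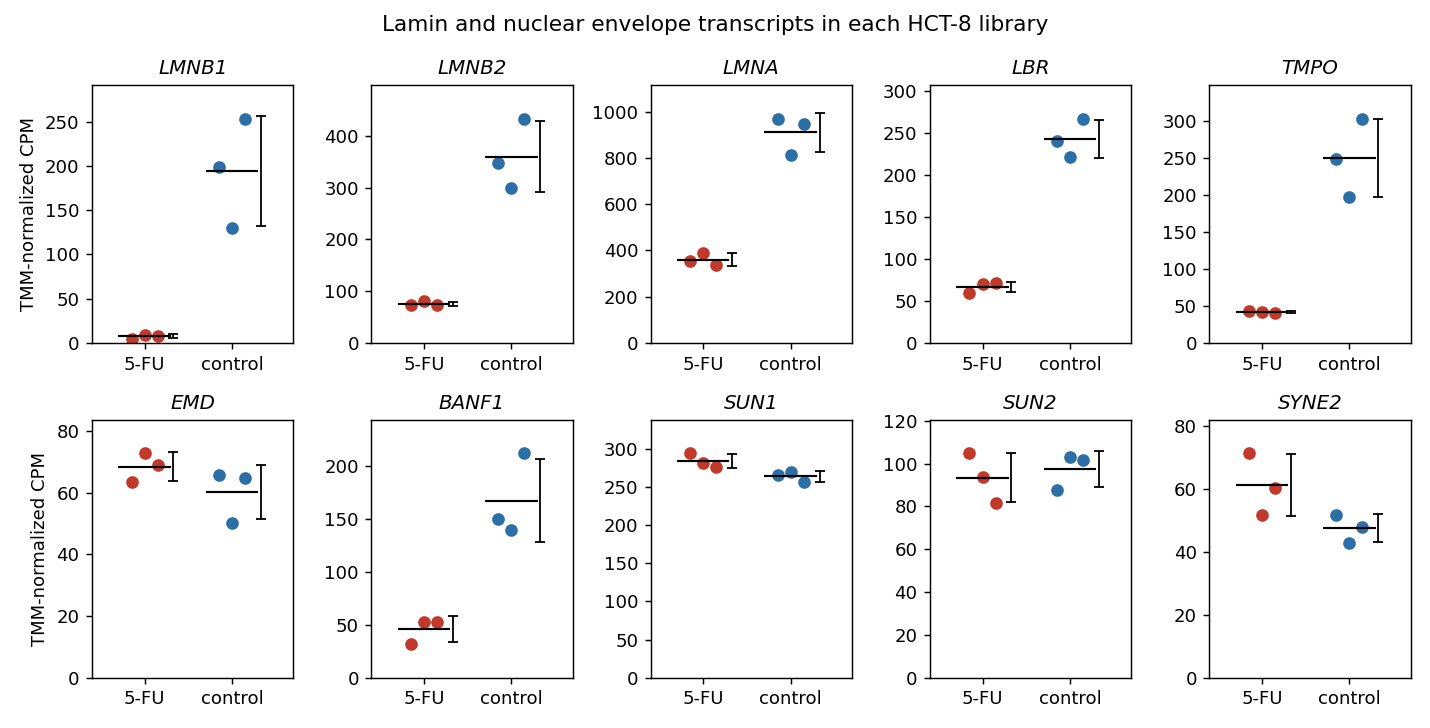
CPM (on TMM-scaled library sizes) of each of the 10 transcripts, with 1 point per library, a line at the mean and a bar for the SD (n = 3 per group). The lamins, LBR, TMPO and BANF1 lie far lower in the 5-FU libraries, while EMD, SUN1, SUN2 and SYNE2 lie close to or slightly above their control levels.

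Because the lamins were lower by unequal amounts, the make-up of the lamin transcripts differed between the groups. Divided by gene length, LMNB1 made up 2.08%, 3.42% and 3.49% of the lamin transcripts in the 5-FU libraries, against 21.3%, 17.3% and 24.5% in the control libraries. The share of LMNB2 was 20.7% ± 0.529 after 5-FU and 26.4% ± 1.60 in control, and that of LMNA 76.3% ± 1.04 after 5-FU and 52.5% ± 4.50 in control (SD, n = 3 each). Per unit length there were 27.0 ± 8.81 LMNA transcripts for each of LMNB1 after 5-FU and 2.58 ± 0.659 in control. For LMNA against LMNB2 the ratio was 3.69 ± 0.131 after 5-FU and 1.996 ± 0.260 in control. Such ratios within a library do not depend on how libraries are scaled. Gene counts do not separate lamin A from lamin C, nor the isoforms of TMPO; the annotation lists 25 transcripts for LMNA, 13 for TMPO and 8 for LMNB1.

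**Figure D2:**
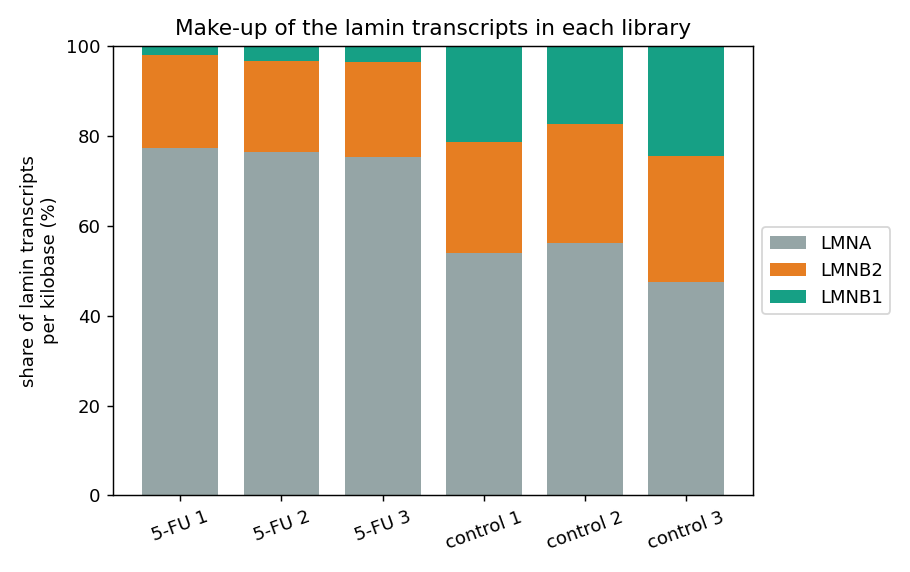
Share of each lamin gene in the sum of the 3 lamin transcripts, in percent of CPM per kilobase of gene length, as stacked bars for each of the 6 libraries. LMNB1 takes 2.08% to 3.49% in the 5-FU libraries and 17.3% to 24.5% in the control libraries.

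The chromatin-binding proteins of the inner membrane split. LBR, a membrane protein with a sterol reductase domain that binds B-type lamins and heterochromatin protein, was at 59.0, 69.8 and 70.6 CPM after 5-FU against 240.0, 221 and 267 CPM in control (27.4% of the control mean; log2 fold change -1.87, SE 0.13). TMPO, which encodes the LEM-domain proteins of the LAP2 family, was at 42.6, 41.8 and 40.3 CPM after 5-FU against 248.7, 197 and 303 CPM in control (16.7%; -2.58, SE 0.16). After LMNB1 it had the lowest log2 fold change of the 10.

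BANF1 encodes the barrier-to-autointegration factor, which cross-links DNA and binds LEM domains. It stood at 31.6, 52.7 and 52.5 CPM after 5-FU against 150.1, 139 and 212 CPM in control (27.3%; -1.87, SE 0.21). EMD, whose product emerin is another LEM-domain protein and a partner of BANF1, did not follow. It stood at 63.6, 72.8 and 69.0 CPM after 5-FU against 65.6, 50.2 and 64.8 CPM in control, and the groups overlapped (log2 fold change 0.19, SE 0.13). Within libraries the ratio of TMPO to EMD per unit length was 0.143 ± 0.0124 after 5-FU and 0.970 ± 0.111 in control. For BANF1 to EMD this ratio was 0.811 ± 0.176 after 5-FU and 3.41 ± 0.599 in control (SD, n = 3 each).

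The LINC genes stood near their control levels. SUN1, an inner membrane protein that holds nesprins, was at 294, 282 and 277 CPM after 5-FU against 266, 270.0 and 256 CPM in control (log2 fold change 0.11, SE 0.12). Its groups did not overlap in CPM, but in the authors' FPKM, which is scaled otherwise, they overlapped at 22.4 to 22.8 after 5-FU and 22.8 to 23.5 in control. SUN2, its paralog, was at 105, 93.6 and 81.8 CPM after 5-FU against 87.7, 103 and 102 CPM in control, with overlapping groups (-0.06, SE 0.13). SYNE2, the giant gene of nesprin-2, was at 71.3, 51.7 and 60.4 CPM after 5-FU against 51.8, 42.8 and 47.9 CPM in control (0.36, SE 0.14). Its lowest 5-FU library lay just under its highest control library, so the groups overlapped. The 3 lamins together were 1.76 ± 0.158 times as abundant per unit length as SUN1 and SUN2 together after 5-FU and 6.71 ± 1.202 times in control.

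**Figure D3:**
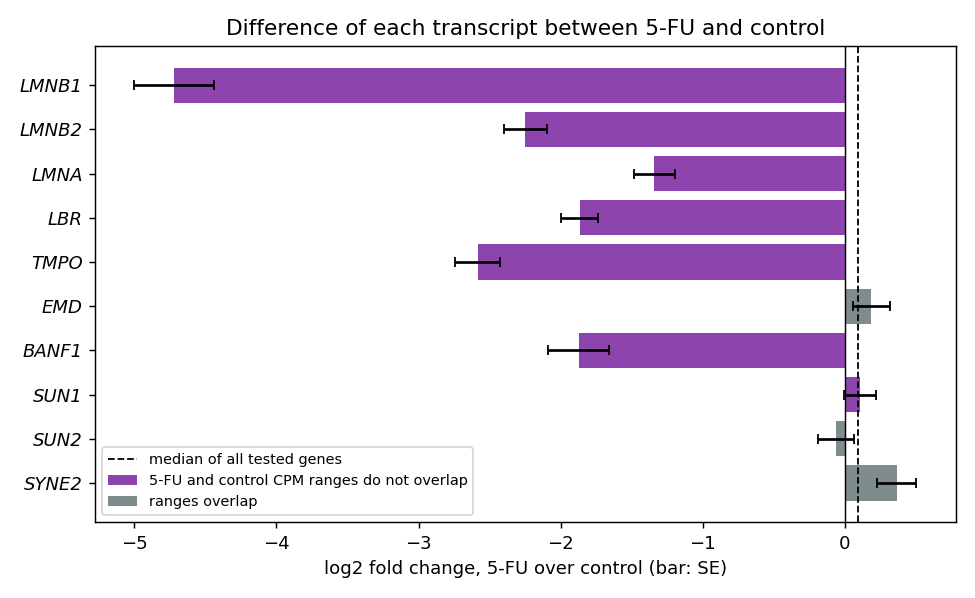
Log2 fold change of 5-FU over control for each of the 10 genes, with the SE as a bar, coloured by whether the CPM ranges of the groups overlap, and the median of all tested genes (0.09) as a dashed line. The values run from -4.72 for LMNB1 to 0.36 for SYNE2, with 6 genes at -1.34 or lower and 4 between -0.06 and 0.36.

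In all, the CPM ranges of the groups lay apart with 5-FU lower for 6 of the 10 genes, where this held for 35.9% of all tested genes, and with 5-FU higher for 1, SUN1, where it held for 38.4% (74.3% in either direction). A log2 fold change under -1 was found for 6 of the 10 genes and for 16.3% of all tested genes. In edgeR's quasi-likelihood test at a Benjamini-Hochberg adjusted p under 0.05, the same comparison called 70.2% of all tested genes, 33.9% as lower and 36.3% as higher. Its calls on the 10 genes are not given, since they were chosen with this comparison known. For the same reason nothing is read from the counts of the 10 above. The balance over all genes depends on scaling, with 7171 called higher and 6706 lower under TMM factors and 9602 and 4614 under upper-quartile factors. In the authors' FPKM, taken as log2(FPKM + 1), it also depends on the filter. There 4320 were called higher and 7136 lower at a value of at least 1 in 3 samples, and 6926 and 6902 without that filter.

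For EMD, SUN1, SUN2 and SYNE2 the scaling is as large as the difference. Upper-quartile factors moved the median of all genes up by 0.36 on the log2 scale and plain library totals moved it up by 0.11. Relative to the median of all genes, EMD was at 0.09, SUN1 at 0.01, SUN2 at -0.15 and SYNE2 at 0.27 under TMM factors, and at 0.10, 0.02, -0.15 and 0.28 under upper-quartile factors. LMNB1 was at -4.81 and -4.80 on the same footing. Without this correction SUN1 ran from -0.04 to 0.46 and SUN2 from -0.21 to 0.30 over all settings, so the sign of both depends on the setting. Taken relative to the median of all genes in each setting, whose tested genes differ, the range was -0.67 to 0.34 for SUN1, -0.84 to 0.17 for SUN2, -0.59 to 0.42 for EMD and -0.42 to 0.60 for SYNE2. Without the correction EMD (0.03 to 0.55) and SYNE2 (0.13 to 0.73) stayed positive in all settings. Relative to the median, the sign of all 4 genes depends on the setting, and some settings also change which genes are tested.

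**Figure D4:**
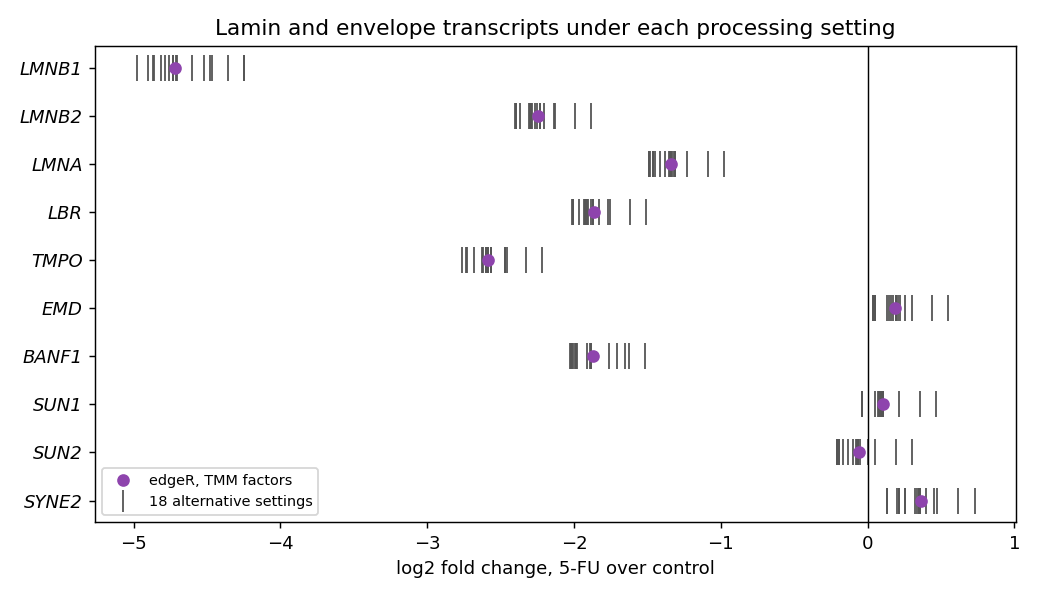
Log2 fold change of 5-FU over control for each of the 10 genes under the edgeR fit with TMM factors (dots) and under 18 alternative settings (ticks). LMNB1 runs from -4.98 to -4.25, the other 5 lower genes stay under 0, and SUN1 and SUN2 fall on both sides of 0.

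Per unit length, the order of the 10 transcripts differed between the groups. In 5-FU libraries LMNA led at 51.5 ± 3.92 CPM per kilobase, followed by EMD (33.9), BANF1 (27.7), SUN1 (24.1), SUN2 (14.4), LMNB2 (13.9), LBR (12.6), TMPO (4.84), LMNB1 (2.03) and SYNE2 (1.95), all in CPM per kilobase. Of the neighbours in this order, EMD and BANF1, BANF1 and SUN1, SUN2 and LMNB2, and LMNB1 and SYNE2 overlapped in their ranges. In control libraries LMNA led at 130.3 ± 12.1 CPM per kilobase, followed by BANF1 (102), LMNB2 (66.2), LMNB1 (53.5), LBR (46.2), EMD (29.8), TMPO (29.02), SUN1 (22.4), SUN2 (15.01) and SYNE2 (1.51). There LMNA and BANF1, LMNB2 and LMNB1, LMNB1 and LBR, and EMD and TMPO overlapped. LMNB1 thus had rank 9 after 5-FU and rank 4 in control, while EMD had rank 2 after 5-FU and rank 6 in control. The length used is that of all annotated exons, 31374 bases for SYNE2 and 11811 for SUN1, so genes with many long isoforms are understated.

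The libraries of a group also differed among themselves, most of all for LMNB1. Its highest library was 1.84 times its lowest after 5-FU and 1.95 times in control, against 1.06 and 1.05 times for SUN1. Among control libraries LMNB1, LMNB2, LBR, TMPO and BANF1 were all lowest in replicate 2 and highest in replicate 3. The summed CPM of 26 proliferation genes had that order as well, at 5490, 3575 and 6323 in control replicates 1, 2 and 3. Among 5-FU libraries LMNB1, LMNB2, EMD and BANF1 were lowest in replicate 1 and highest in replicate 2, as was the proliferation sum, at 342, 585 and 527 in replicates 1, 2 and 3. The others had other orders: LMNA, EMD and SYNE2 were highest in control replicate 1, SUN1 and SUN2 in control replicate 2, and TMPO and LBR, which shared the order of the sum in control, did not share it after 5-FU. After 5-FU TMPO, SUN1, SUN2 and SYNE2 were highest in replicate 1, LBR in replicate 3 and LMNA in replicate 2. These orders rest on 3 libraries a group and are given as a description. The share of all tested genes with each order was not counted, and a link of these genes to proliferation was not tested. Across genes, control replicate 2 differed more from replicates 1 and 3 (chi-square per gene 24 and 24.5) than these from each other (10.5). The same held for 5-FU replicate 1 against replicates 2 and 3 (21.4 and 28, against 10.6).

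The transcripts with profiles nearest to that of LMNB1 were looked up as a description. Likeness was the root mean square difference from LMNB1 in log2 CPM, each gene centred on its own mean, over the 6 libraries among 11418 candidates, all protein-coding and averaging 100 counts or more. The mitotic kinase AURKA was nearest (0.104), at 3.67, 6.78 and 5.96 CPM after 5-FU against 124, 85.2 and 174 CPM in control. It was followed by HMMR, a hyaluronan and microtubule binding protein (0.117), TOP2A, a DNA topoisomerase (0.176), UBE2C, a ubiquitin-conjugating enzyme of the anaphase-promoting complex (0.177), and the centrosomal kinase NEK2 (0.190). The gap between 5-FU and control libraries, by which LMNB1 was chosen, sets most of the distance of genes whose gap differs widely. A gene must share this gap to be near, and the log2 fold changes of the 5 nearest genes were -4.40 to -4.71. Their order does not follow the gap, since NEK2, at -4.71, came last of the 5, so scatter within groups enters as well. For TMPO (1.11), LMNB2 (1.26), BANF1 (1.41), LBR (1.44) and LMNA (1.71) the distances follow the order of their log2 fold changes and add nothing to them.

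Start regions of the 10 genes were read from RefSeq on GRCh38.p14, in windows of 250 bases before to 50 bases after each annotated start; 9 genes had 17 windows, and SUN1 is named only. Those of LMNB1 and TMPO, the lowest of the 10, and of EMD, which stayed near its control level, are shown as far as they lie upstream of the gene as annotated in the count table, 5′ to 3′ on the plus strand. Capitals mark matches to the motifs named below.
LMNB1: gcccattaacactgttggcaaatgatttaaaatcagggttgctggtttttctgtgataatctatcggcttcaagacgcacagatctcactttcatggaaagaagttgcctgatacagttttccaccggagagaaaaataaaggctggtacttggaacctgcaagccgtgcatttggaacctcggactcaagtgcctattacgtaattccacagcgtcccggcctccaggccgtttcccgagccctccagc
TMPO: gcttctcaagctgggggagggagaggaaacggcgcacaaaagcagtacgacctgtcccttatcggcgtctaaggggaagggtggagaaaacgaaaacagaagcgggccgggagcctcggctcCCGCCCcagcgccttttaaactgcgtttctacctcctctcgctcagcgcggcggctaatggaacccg
EMD: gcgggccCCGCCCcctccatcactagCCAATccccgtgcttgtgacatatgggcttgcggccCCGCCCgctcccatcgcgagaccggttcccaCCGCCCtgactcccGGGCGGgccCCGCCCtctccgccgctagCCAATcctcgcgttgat
These are chr5:126776373-126776622, chr12:98515323-98515511 and chrX:154379045-154379196. Both strands were searched for E2F cores (spelled TTCCCGC or as TTCGCGC, and also TTGCCGC or as TTGGCGC), the cell cycle homology region (TTTGAA), the CCAAT box (CCAAT) and the GC box (GGGCGG). Among all 35116 windows 13% held an E2F core, 15.2% the TTTGAA element, 34.6% a CCAAT box and 45% a GC box. The LMNB1 window shown, that of the most upstream annotated start, held none of them. The window of a second LMNB1 start held 1 CCAAT box and 4 GC boxes. Which start these cells use was not tested, so LMNB1 is not described as lacking these motifs. TMPO held 1 GC box and, past the stretch shown, 2 CCAAT boxes, and EMD held 2 CCAAT boxes and 6 GC boxes, 1 of them past the stretch shown. E2F cores were found in LMNA, where the core overlaps a GC box, in BANF1 and in SYNE2, and the TTTGAA element in LMNB2 and SUN2. A match is a run of letters and not a shown binding site.

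Other proteins of the inner membrane and lamina went both ways. Of 21 tested genes 10 fell and 5 rose, against 33.9% and 36.3% of all tested genes, at a median log2 fold change of -0.31 against 0.09 over all genes. NRM, the multipass membrane protein nurim, fell to 9.73 ± 1.42 CPM after 5-FU, against 29.5 ± 4.52 CPM in control (log2 fold change -1.60, SE 0.17, edgeR adjusted p = 9.21e-06), and the torsin family ATPases TOR2A (-1.26) and TOR3A (-1.43) fell as well. TMEM120B rose to 72.5 ± 2.40 CPM after 5-FU, against 37.8 ± 1.13 CPM in control (0.94, SE 0.11, edgeR adjusted p = 1.67e-05). ANKLE1, a LEM-domain endonuclease, rose (2.03, SE 0.25), as did LEMD2, a LEM-domain protein of envelope reassembly (0.83, SE 0.12). Of the remaining LEM-domain genes, named here for their domain after their values were seen, LEMD3 fell (-0.62, SE 0.13), while LEMD1 was at -0.28 (SE 0.30) and ANKLE2 at 0.12 (SE 0.12) and neither passed.

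Among other LINC complex proteins 5 of 7 tested genes rose and the other two did not pass edgeR's quasi-likelihood test, at a median of 1.01, where 36.3% of all tested genes were called higher. A further 3 of the 10 listed genes, CCDC155, LRMP and SUN5, had too few counts to be tested. SYNE1, the gene of nesprin-1, rose 4.83-fold to 39.7 ± 8.80 CPM after 5-FU, against 8.22 ± 1.36 CPM in control (log2 fold change 2.27, SE 0.19, edgeR adjusted p = 2.89e-06). SPAG4, a SUN-domain protein, rose to 19.6 ± 2.98 CPM after 5-FU, against 9.75 ± 2.44 CPM in control (1.01, SE 0.19). SUN3, a SUN protein known from the testis, rose to only 3.09 ± 0.703 CPM after 5-FU, against 0.510 ± 0.0249 CPM in control (2.59, SE 0.31). On the authors' FPKM 3 of the list were called.

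Factors of lamin processing and envelope reassembly fell for 15 of 23 genes and rose for 3, at a median of -0.60, where 33.9% of all tested genes were called lower and 36.3% higher. VRK1, the kinase that phosphorylates the BANF1 product and releases it from DNA, fell to 3.86 ± 1.24 CPM after 5-FU, against 43.9 ± 9.20 CPM in control (log2 fold change -3.50, SE 0.24, edgeR adjusted p = 1.02e-06). ICMT, which methylates farnesylated lamins, fell (-1.35, SE 0.15), as did the phosphatase CTDNEP1 of the nuclear envelope (-1.26, SE 0.13). NARF, a protein that binds prelamin A, rose (0.69, SE 0.15). CHMP4A of the ESCRT-III membrane scission complex rose (1.75, SE 0.21), but other genes share 68.8% of its exonic bases and its value is uncertain. The farnesyltransferase subunit FNTA rose by little (0.33, SE 0.11, edgeR adjusted p = 0.0223). Its call was lost in 9 of 18 alternatives, among them DESeq2 and those without control replicate 2 or 3 or 5-FU replicate 2 or 3 (log2 fold changes 0.18, 0.29, 0.23, 0.33 and 0.32); its adjusted p ranged from 2.82e-04 to 0.336.

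Chromatin proteins linked to the lamina fell for 14 of 18 genes, and the other 4 did not pass edgeR's quasi-likelihood test, at a median of -0.88, where 33.9% of all tested genes were called lower. CBX5, the heterochromatin protein that LBR binds, fell to 69.7 ± 6.22 CPM after 5-FU, against 341 ± 68.9 CPM in control (log2 fold change -2.29, SE 0.16, edgeR adjusted p = 1.30e-06), its paralog CBX1 fell by 1.85 (SE 0.15) and the insulator protein CTCF fell by 1.56 (SE 0.13) on the log2 scale. Nuclear pore proteins fell for 27 of 32 genes and rose for 1, at a median of -0.90, beside the same 33.9% called lower and 36.3% called higher over all genes. NDC1, a membrane anchor of the pore, fell by 2.07 (SE 0.18), NUP37 of the outer ring by 1.88 (SE 0.15) and the membrane nucleoporin NUP210 by 1.59 (SE 0.13), while NUPL2 rose (0.61, SE 0.12). The range of the pore genes ran from -2.07 to 0.61, so each pore gene differed by less than LMNB1, LMNB2 and TMPO; whether these differences are larger was not tested.

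**Figure D5:**
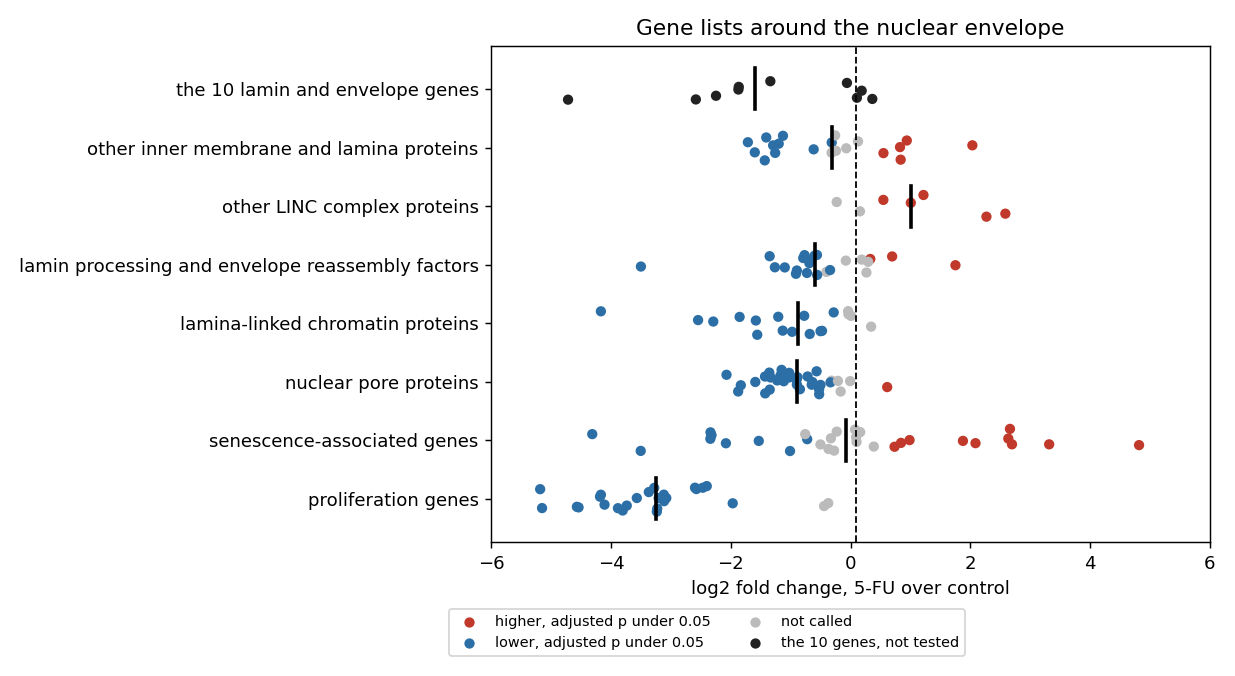
Log2 fold change of 5-FU over control for each tested gene of 7 lists around the nuclear envelope and for the 10 lamin and envelope genes (top row), with black bars at the medians and the median of all tested genes (0.09) dashed. LMNB1, chosen for its fold change, is at -4.72. The proliferation list runs from -5.185 to -0.372 (median -3.26) and the pore list from -2.07 to 0.61 (median -0.90). The lowest genes of the senescence and lamina-linked lists are at -4.315 and -4.171.

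Of 30 tested genes that are used with LMNB1 as signs of senescence 10 rose and 9 fell, at a median of -0.08. These counts are near the shares over all tested genes, of which 36.3% were called higher and 33.9% lower. The CDK inhibitors CDKN1A and CDKN2B rose, CDKN1A to 1136 ± 252 CPM after 5-FU, against 267 ± 78.7 CPM in control (log2 fold change 2.09, SE 0.23, edgeR adjusted p = 1.17e-05), and CDKN2B to 18.7 ± 4.34 CPM after 5-FU, against 1.86 ± 0.232 CPM in control (3.32, SE 0.23). The chromatin proteins HMGB2 and HMGB1 are known to be lost in senescent cells. HMGB2 fell (-4.31, SE 0.25) and HMGB1 fell (-2.34, SE 0.17), and HMGB1 has many processed copies that can share its reads. Another CDK inhibitor, CDKN2C, fell (-3.51, SE 0.28). Of further genes of the list, named after their values were seen, CDKN1B (-1.53, SE 0.14) and GLB1 (-0.72, SE 0.15) fell. CDKN2A rose (2.70, SE 0.50), but to only 0.832 CPM after 5-FU, against 0.122 CPM in control. It too entered the test only through the 5-FU libraries. The secreted factors on the list, named after their values were seen, went both ways. CXCL1 (-2.34), CCL20 (-2.32), CCL2 (-2.08) and AREG (-1.01) fell. Among those that rose were GDF15 (1.88), LIF (0.99) and IL1B (0.735). IGFBP7 (2.64) and MMP1 (4.82) rose as well, to only 1.675 and 1.89 CPM after 5-FU. MMP1 scattered widely there (SD 1.90 CPM). Their control means were 0.265 and 0.0615 CPM. Both genes thus entered the test only through the 5-FU libraries and could only be called higher. Further factors did not pass, among them CXCL8 at -0.76, and IL6 had too few counts to be tested.

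The proliferation list, whose fall is known from the wider comparison and is no separate evidence here, fell for 24 of 26 genes. Over all tested genes 33.9% were called lower. The list had a median of -3.26, against 0.09 over all tested genes, with CCNB1 at -5.15 (SE 0.25), CCNB2 at -4.11 (SE 0.23) and MCM6 at -3.12 (SE 0.17). AURKA and TOP2A are on it too, and MKI67 is both on it and among the lamina-linked chromatin proteins. The part of cell number or cell cycle state in the levels of the lamins was not tested.

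Some reads cannot be assigned from the tables alone, since whether counting used strand is not stated. GET4, on the same strand, shares 15.6% of the exonic bases of SUN1. Shared likewise were 10.5% of SUN2 with GTPBP1 and 5.96% of BANF1 with EIF1AD, both on the other strand, and 4.73% of LMNB2 with TIMM13 on its own strand. The antisense gene TMPO-AS1 covers 8.30% of TMPO. It had 31, 40 and 49 counts after 5-FU against 169, 113 and 153 in control, well under the 837, 801 and 852 counts of TMPO after 5-FU and the 5544, 4352 and 6136 in control. Named pseudogenes were small beside their parents: the most counted, BANF1P2, had 143 counts in all 5-FU libraries and 92 in all control libraries. LMNB1, LMNA, LBR, EMD and SYNE2 shared no exonic bases with another annotated gene. The 10 genes lie on 9 chromosomes, LMNB1 (ENSG00000113368) on chromosome 5 at 126776623 to 126837020 on the plus strand of GRCh38, and LMNA (ENSG00000160789) and LBR (ENSG00000143815) both on chromosome 1, at 156082573 to 156140089 and at 225401502 to 225428925.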

How the data were processed

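TRIzol RNA went into NEBNext Ultra libraries, per the labels' protocols. Build GRCh38, DESeq2 1.16.1, HISAT2 2.0.5 and featureCounts 1.5.0-p3 are named, per the submitters' processing notes, without a strand or multi-mapping setting. The authors deposited raw counts for each gene. The authors' FPKM equal the count divided by gene length and by 1 constant per library, which was 1.07 to 1.16 times the count total in 5-FU and 0.892 to 0.986 times in control libraries, as tested on 11024 genes.

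Samples were grouped by their treatment label. The whole count table was fitted with edgeR 4.0.16 in R 4.3.3 (quasi-likelihood test, filterByExpr at a minimum count of 10 and total of 15, TMM factors, group alone), with Benjamini-Hochberg adjustment over 19771 genes. Each SE was taken as the unshrunk log2 coefficient over the root of its F statistic. The fit was tested on simulated data. CPM use TMM-scaled library sizes. Within a group, the chi-square between any pair of libraries was 10.5 to 28 per gene, beyond counting noise.

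The 10 genes and the 9 gene lists were chosen with earlier results of these data known. Named genes are the 10, and for each list other than cell markers up to 3 called lower and 3 called higher of smallest p, plus the 5 most like LMNB1; of these 36 other genes, 6 share over 10% of their exonic bases with another gene (TMEM120B, ANKLE1, CTDNEP1, CHMP4A, CTCF and NUPL2). One gene that the rule names is not reported here. Alternatives were other scalings, filters and tests (limma 3.58.1, DESeq2 1.42.0), a replicate block, leaving out each library, and limma on log2(FPKM + 1) or log2(FPKM + 0.1), scales that understate the change of low genes.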

Additional observations from a re-analysis of the deposited data

How the results depend on the processing

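Under all 18 alternatives LMNB1, LMNB2, LMNA, LBR, TMPO and BANF1 stayed lower after 5-FU. The log2 fold change of LMNB1 less the median of the other 9 genes was -3.38 in the reported fit. It ranged from -3.53 to -3.17 as each library was left out. On log2(FPKM + 1), with and without the filter, it was -2.78, a scale that understates the change of low genes. LMNB1 was chosen for its strong decrease in these same libraries, so a gap below the other genes was set by the choice and is only described. Of the other LINC complex proteins 3 were called, in place of 5, on log2(FPKM + 1) with the filter, without it, and on log2(FPKM + 0.1); the cause was not tested. The counts of called genes in the other lists, and of all genes, stayed within 1.5 times in every alternative, but genes called higher were 4320 on log2(FPKM + 1) and 4268 on log2(FPKM + 0.1) with the filter, in place of 7171. The replicate number as a block gave 13243 called genes in place of 13877, with LMNB1 at -4.70; same-numbered libraries did not deviate together (correlations of -0.07, -0.20 and 0.06 for replicates 1, 2 and 3), so the numbers are not taken to pair the samples. No group had more than 3 libraries, and counts of 97 to 174 for LMNB1 after 5-FU carry more counting error than those in control, although the spread between libraries was alike (CV 29.3% after 5-FU and 31.9% in control).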
